A study of Mus musculus with 9 samples.

Results

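Gene expression in sorted Scx-GFP cells of the mouse forelimb was compared between embryonic stages E11.5 and E12.5, the first of the 2 intervals of a time course that ends at E14.5. All 3 arrays of each of the 2 stages were used, 6 of the 9 arrays of the series, and the E14.5 arrays entered the fit for the spread between arrays and are given beside it where a later value is needed. The comparison runs over 11575 genes, those of 18193 named genes on the array whose signal exceeded the median of all signals on at least 3 of the 9 arrays. The embryos carried the Scx-GFP reporter at every stage, with no other allele, agent or treatment named in the labels, so the groups differ in embryonic age alone as far as the labels say. Trypsin freed the cells of the forelimbs, those positive for GFP were sorted on either of 2 flow cytometers, and their total RNA was amplified for Affymetrix mouse expression arrays, which read each transcript with sets of short probes. The labels call the sorted cells limb tendon cells; they do not give the number of embryos behind an array, the cytometer used for each sample or whether a stage's 3 samples are from different litters. The p-values below therefore measure the spread between these samples, which may be partly technical.

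Scx encodes scleraxis, a basic helix-loop-helix transcription factor of tendon and ligament progenitors. In the limb bud such progenitors lie in mesenchyme that is still growing and being patterned by signals from its posterior margin and its ectoderm, and they later gather between muscle and cartilage and become tenocytes. A tenocyte makes a matrix of collagen fibrils whose diameter and spacing are set in part by small leucine-rich proteoglycans (SLRPs), short proteins built of leucine-rich repeats that bind the fibril surface.

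Median signals over all probe sets ranged from 68.7 to 106 at E11.5 and from 69.5 to 106 at E12.5, on a linear scale with a trimmed mean of 500 on every array. Scx gave 14811, 21375 and 21828 on E11.5 arrays A, B and C and 17214, 16654 and 16100 on the E12.5 arrays, so the gene whose regulatory sequence drives the reporter was far above background on all 6, and its arrays overlapped between the stages (log2 change -0.19 ± 0.22, adjusted p = 0.74). Tnmd, the gene of the mature tenocyte's membrane protein tenomodulin, gave 42.01, 14.4 and 7.8 at E11.5 and 30.9, 129 and 163 at E12.5. All 6 values lie under 181, the level called near background here, which is 2 times the median of all signals, and the change did not pass the test (log2 change 1.63 ± 0.55, adjusted p = 0.17; here and below the error of a log2 change is its SE). Array A ran opposite to arrays B and C, and the change was called without E12.5 A (log2 2.38, adjusted p = 0.00844) and without the letter A arrays (log2 2.67, adjusted p = 0.00758). Mkx, which encodes the homeobox factor Mohawk of tendon, gave 473, 344 and 470.5 at E11.5 and 676, 896 and 860.5 at E12.5, a rise with no overlap between the stages (log2 change 0.92 ± 0.19, adjusted p = 0.036); the call held in 1 of the 6 fits that left out an array of these stages.

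Of 11575 genes tested, 411 (3.55%) were called different between the stages at an adjusted p under 0.05 (limma, Benjamini-Hochberg adjustment over the genes tested). Far more genes were called higher at E12.5, 360 (3.11% of the genes tested), than lower, 51 (0.441%). Among all tested genes 56.4% had a change above 0, with a median log2 change of 0.04, while 87.6% of the calls were rises. The 3 arrays of the higher stage lay above all 3 of the other for every called gene, as they did for 15.8% of all tested genes in the direction of a rise and for 7.75% in that of a fall. A lack of overlap given below for a called gene therefore adds nothing to its call. The median size of a called change was 1.12 on the log2 scale and the smallest 0.51. A change over 1 was measured for 224 rises and 23 falls, and one over 2 for 31 rises and 3 falls. With 3 arrays a stage the count of calls depends on single arrays: 125 genes were called without E12.5 C, 133 without E12.5 B, 210 without E11.5 A, 210 without E11.5 B and 267 without E14.5 B, and 486 without E14.5 A. Of the 411 calls, 109 (100 rises and 9 falls) held with each of the 6 arrays of E11.5 and E12.5 left out in turn.

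**Figure D1:**
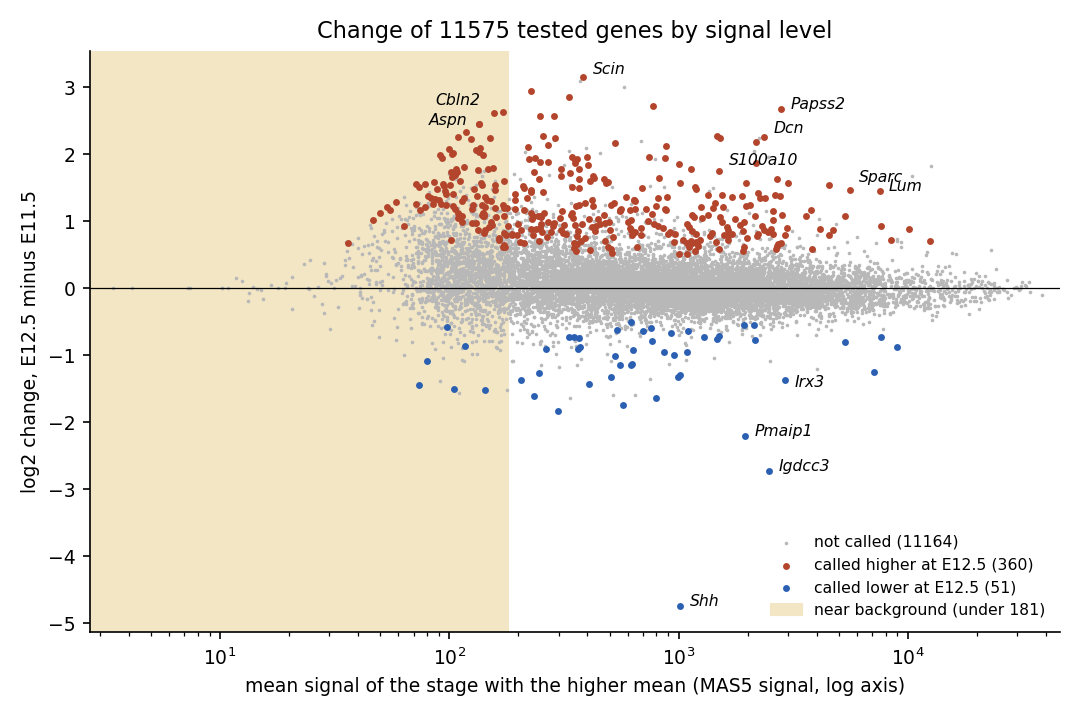
Each point is 1 of 11575 tested genes; the x axis is the mean MAS5 signal of the stage with the higher mean (log axis) and the y axis the log2 change from E11.5 to E12.5. Red and blue points are the 360 genes called higher and the 51 called lower; the shaded range under 181 is near background and holds 108 of the red and 6 of the blue points.

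The largest change of the interval was the loss of Shh, the secreted signal of the posterior limb margin. Shh gave 930.5, 1240.4 and 885 on the E11.5 arrays and 68.5, 14.4 and 34.5 on the E12.5 arrays, 1 of which was under the floor of 22.7 at which signals were set before the test (log2 change -4.74 ± 0.35, adjusted p = 5.6e-04). Every E11.5 array was more than 10 times higher than every E12.5 array, and the call held with each array left out. In sorted cells measured in bulk, fewer cells that make a transcript and less of it per cell cannot be told apart, here and for every change below. Of the other tested members of the hedgehog pathway none was called: Ptch1, the receptor and a target of the pathway, gave means of 5122 ± 1194 (SD, n = 3, as for all means below) at E11.5 and 4362 ± 159 at E12.5, and Gli1, a transcription factor and target, gave 562 ± 108 and 710.4 ± 71.3 (adjusted p = 0.70 and 0.43).

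In a list of limb patterning transcription factors 3 of 37 tested members were called lower and 0 higher, beside 0.441% and 3.11% of all tested genes. The median log2 change was -0.24, against 0.04 for all tested genes. This list and the others below were chosen with earlier results of these data known, so their shares and medians are a description only. Irx3, an Iroquois homeobox gene, gave 2734, 3197 and 2787 at E11.5 and 1403, 1172 and 853 at E12.5 (log2 change -1.37 ± 0.18, adjusted p = 0.0054). Sall4, a zinc finger gene of early limb and stem cells, gave 582, 623 and 505 and then 232, 128 and 162 (log2 change -1.75 ± 0.28, adjusted p = 0.011). In both genes the lowest E11.5 array stood above the highest E12.5 array. Arid3b, which encodes a DNA-binding protein, fell by 1.32 ± 0.21 (SE) on the log2 scale (adjusted p = 0.011). Without E12.5 C only 1 of the 37 was called, and 5 were without E14.5 A. Outside the list, falls were called for the paired box genes Pax3, a marker of muscle precursors (means 235 and 78.3), and Pax1 (245 and 102), for Zbtb16, a zinc finger repressor that takes part in limb patterning (407 and 151), and for Sp5, a Wnt-responsive factor whose signals are near background at both stages (73.5 and 24.97). Among 24 tested Hox genes 1 rose and 1 fell. Hoxd13, the most 5′ gene of its cluster and a gene of the distal limb, gave 6099, 4689 and 5685 at E11.5 and 9207, 10259 and 10763 at E12.5 (log2 change 0.88 ± 0.14, adjusted p = 0.010), and Hoxb2 fell from a mean of 367 ± 13.5 to 220.1 ± 35.2 (adjusted p = 0.035). Neither Hox call held without E12.5 B or without E12.5 C, and that of Hoxb2 was lost in all 6 fits with an array left out.

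Genes of the Lin28 and let-7 circuit, in which the RNA-binding protein Lin28 and the microRNA let-7 oppose each other in early embryonic cells, had changes below 0 in each of the 7 tested members. The median log2 change was -0.63, and 2 members were called lower, beside 0.441% of all tested genes. Igdcc3, an immunoglobulin superfamily gene, gave 2658, 3294 and 1486 at E11.5 and 444, 301 and 334 at E12.5 (log2 change -2.73 ± 0.32, adjusted p = 0.0036), the next largest fall after Shh. Trim71, which encodes an RNA-binding ubiquitin ligase, gave 1049, 1089 and 843 and then 435, 430.1 and 333 (log2 change -1.32 ± 0.18, adjusted p = 0.0070). The E11.5 and E12.5 arrays of both genes lay well apart, and both calls held with each array left out. The others did not pass the test, among them Igf2bp1, an mRNA-binding protein, at -0.63 ± 0.17 (adjusted p = 0.087), Mycn, a growth-promoting transcription factor, at -0.69 ± 0.23 (adjusted p = 0.16) and Hmga2, a chromatin protein and classical let-7 target, at -0.25 ± 0.17 (adjusted p = 0.54). Without E11.5 C 4 members were called, Igf2bp1 and Mycn among them. From E12.5 to E14.5, an interval that shares the E12.5 arrays with this one, 6 of the 7 were called lower, beside 9.32% of all tested genes.

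The remaining large falls were of mixed function. Pmaip1, which encodes the cell death protein Noxa, gave 2553, 1639 and 1642 at E11.5 and 681, 343 and 301 at E12.5 (log2 change -2.20 ± 0.45, adjusted p = 0.033), and its call was lost in 5 of the 6 fits with an array left out. Gldc, the decarboxylase of the mitochondrial glycine cleavage system, gave 298, 357 and 238 and then 96.03, 54.2 and 109 (log2 change -1.83 ± 0.31, adjusted p = 0.014). Its arrays did not overlap, and among the 6 fits with an array left out the call was lost only without E11.5 B. Rspo2, a secreted enhancer of Wnt signalling, gave 605, 1313 and 467 and 261, 247 and 192 (log2 change -1.63 ± 0.36, adjusted p = 0.042), with array B highest at E11.5, and the call held in 1 of the 6 fits with an array left out. Among genes with a mean signal over 1000 at both stages the falls with the largest change were those of Irx3, Fndc3c1 (log2 -1.25), Asb4, a subunit of ubiquitin ligases (-0.87), the lipid phosphatase gene Mtm1 (-0.80), the scaffold gene Tanc1 (-0.78) and the sialic acid O-acetyltransferase gene Casd1 (-0.73).

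SLRPs were the symbol family with the highest share of calls among families with at least 5 tested members. Of 10 tested members 6 were called higher and 0 lower, beside 3.11% of all tested genes, and the median log2 change was 1.76. The promoters of the 4 called members held in the RefSeq table of the GRCm38.p6 build are printed here because these genes rose together; the table has entries for 8 of the 10 tested SLRPs, all but Dcn and Lum. Each runs from 250 bases before to 50 bases after the annotated start, 5′ to 3′ on the plus strand, and capitals mark the TATA box letters TATAAA, the CCAAT box letters CCAAT and the E-box letters CAGATG on either strand. Kera lies at chr10:97606955-97607254, Fmod at chr1:134037004-134037303, Aspn at chr13:49544193-49544492 and Ogn at chr13:49607765-49608064.
Kera: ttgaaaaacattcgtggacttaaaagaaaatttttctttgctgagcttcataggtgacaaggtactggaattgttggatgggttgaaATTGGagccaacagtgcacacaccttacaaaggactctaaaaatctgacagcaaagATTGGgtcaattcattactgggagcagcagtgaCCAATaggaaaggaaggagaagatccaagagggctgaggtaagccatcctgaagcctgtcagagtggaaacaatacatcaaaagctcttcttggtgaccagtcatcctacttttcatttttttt
Fmod: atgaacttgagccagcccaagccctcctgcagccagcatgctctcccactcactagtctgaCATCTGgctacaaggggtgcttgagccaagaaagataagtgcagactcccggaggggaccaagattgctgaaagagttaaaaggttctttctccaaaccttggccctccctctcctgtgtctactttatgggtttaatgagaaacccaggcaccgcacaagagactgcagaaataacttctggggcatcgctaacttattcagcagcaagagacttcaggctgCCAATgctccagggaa
Aspn: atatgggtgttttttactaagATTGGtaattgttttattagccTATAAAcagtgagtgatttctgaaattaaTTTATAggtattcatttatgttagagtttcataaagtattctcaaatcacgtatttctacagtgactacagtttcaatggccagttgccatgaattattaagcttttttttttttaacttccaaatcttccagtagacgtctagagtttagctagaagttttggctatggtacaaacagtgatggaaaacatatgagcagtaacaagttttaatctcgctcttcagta
Ogn: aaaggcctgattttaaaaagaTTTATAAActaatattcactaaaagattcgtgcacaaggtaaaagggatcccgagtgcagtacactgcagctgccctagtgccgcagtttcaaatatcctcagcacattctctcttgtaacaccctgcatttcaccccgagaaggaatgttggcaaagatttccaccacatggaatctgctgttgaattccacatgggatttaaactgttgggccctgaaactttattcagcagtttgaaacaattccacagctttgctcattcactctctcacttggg
The Kera window holds the CCAAT letters 3 times and no TATAAA, the Fmod window 1 CCAAT and 1 E-box, the Aspn window TATAAA on both strands and 1 CCAAT, and the Ogn window TATAAA on both strands in overlapping positions. The TATAAA matches begin at bases 44 and 73 of the Aspn window and at bases 24 and 22 of the Ogn window, so none lies near the annotated start after base 250.

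The same letters were counted in the promoters of other genes, as a description. TATAAA was found in 13.6% of 32851 RefSeq promoters of this length, in 8.49% of those of 9384 tested genes and in 14.9% of those of 276 genes called higher. CCAAT was found in 37.4%, 43.3% and 38.0%, and the E-box letters in 17.2%, 13.3% and 17.4%, in the same order. Of 40 promoters of genes called lower 5 held TATAAA, 20 CCAAT and 8 the E-box letters. A match is one of letters only.

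Decorin, encoded by Dcn, binds collagen fibrils and gave 372, 470.3 and 650.3 on the E11.5 arrays and 1784, 2467 and 2838 on the E12.5 arrays (log2 change 2.26 ± 0.25, adjusted p = 0.0031). Ogn, which encodes osteoglycin, gave 383, 185 and 375 and then 1183, 1873 and 1362 (log2 change 2.28 ± 0.28, adjusted p = 0.0043), and Kera, which encodes keratocan, gave 511, 288 and 765 and then 2074, 2078 and 2406 (log2 change 2.18 ± 0.31, adjusted p = 0.0075). In each of these 3 genes the lowest E12.5 array was more than 2 times the highest E11.5 array, and all 3 calls held with each array left out. Dcn has a dimmer probe set, and with the mean of its probe sets its log2 change was 1.27 (adjusted p = 0.13). Lum, which encodes lumican, was already at 2110.4, 2472 and 3852 at E11.5 and reached 6044, 7149.7 and 9372 (log2 change 1.44 ± 0.24, adjusted p = 0.014). Fmod, which encodes fibromodulin, gave 134, 147 and 117 and then 410.2, 349.9 and 511 (log2 change 1.67 ± 0.31, adjusted p = 0.023); its stages did not overlap, but its call was lost in all 6 fits with an array left out. Aspn, which encodes asporin, was under the floor on all 3 E11.5 arrays (4.85, 20.9 and 8.24) and gave 71.6, 205 and 129.6 at E12.5, still near background, so its fitted change of 2.45 ± 0.32 is measured from the floor and depends on it (adjusted p = 0.0051). Bgn, which encodes biglycan, gave means of 634 ± 214 and 1057 ± 83.4 and did not pass the test (adjusted p = 0.25). With 1 of the 6 arrays left out 4 or 5 members were called. Dcn and Lum are neighbours among the tested genes of chromosome 10, which also carries Kera, and Aspn and Ogn share chromosome 13, so members share their location as well as their name.

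**Figure D2:**
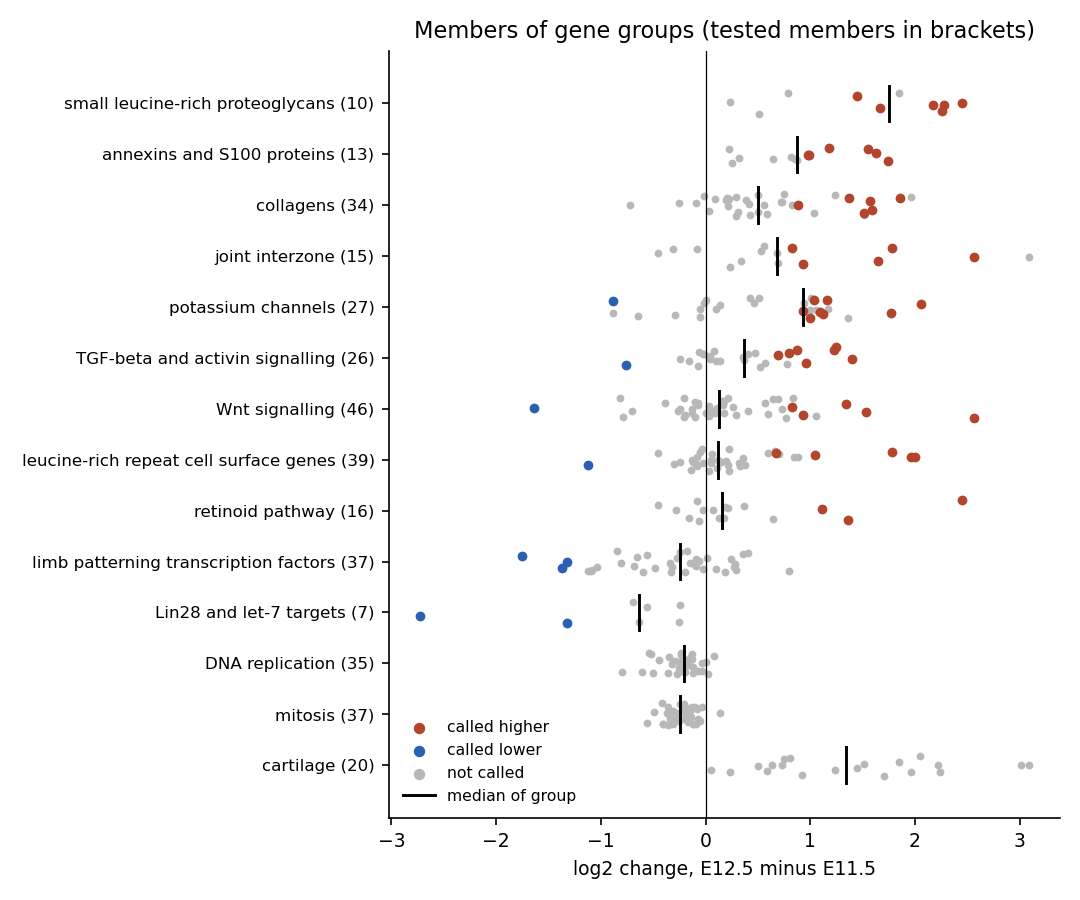
Log2 change from E11.5 to E12.5 (x axis) of every tested member of 14 gene groups; red and blue points passed the test, grey points did not, and the black bar is the group's median. Called SLRPs lie between 1.44 and 2.45. The DNA replication and mitosis lists have medians of -0.20 and -0.24, and none of their members was called.

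Collagen genes rose in part. Of 34 tested collagen genes 6 were called higher and 0 lower, beside 3.11% and 0.441% of all tested genes. The median log2 change was 0.50, and without E12.5 B or E12.5 C the count of calls was 3. All 3 classical chains of collagen VI, a beaded microfibril of the cell's surroundings, were among the 6. Col6a2 gave 947, 1111 and 1145 at E11.5 and 2510.4, 2650 and 3124 at E12.5 (log2 change 1.37 ± 0.15, adjusted p = 0.0031), with Col6a1 (log2 1.51 ± 0.22, adjusted p = 0.0075) and Col6a3 (1.57 ± 0.23, adjusted p = 0.0082) close to it, and these 3 calls held with each array left out. Col6a1 and Col6a2 are neighbouring genes. The others were Col8a2 (1.86 ± 0.40), Col14a1, a collagen that decorates fibrils (1.59 ± 0.26), and Col5a1, a chain of the collagen that nucleates fibrils (0.88 ± 0.20). The chains of collagen I, the bulk of the tendon fibril, did not pass the test in this interval: Col1a1 gave 921, 1211 and 1242 and then 1646, 1979.6 and 1891 (log2 change 0.72 ± 0.18, adjusted p = 0.068) and Col1a2 17133 ± 2599 and 19914 ± 2566 as means (log2 change 0.22 ± 0.17, adjusted p = 0.60). The Col1a1 arrays did not overlap, and its change in the next interval was 2.69 (adjusted p = 0.025 for the difference between the intervals).

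Enzymes and partners of the matrix rose beside the collagens. Sparc, which encodes a collagen-binding matricellular protein, gave 1323, 2332 and 2618 at E11.5 and 5265, 5079 and 6395 at E12.5 (log2 change 1.47 ± 0.25, adjusted p = 0.014). Lox, the lysyl oxidase that starts collagen crosslinks, gave 325, 572 and 419.7 and then 1138, 1269.6 and 1174 (log2 change 1.48 ± 0.21, adjusted p = 0.0075). Neither gene's stages overlapped, and the call of Lox held with each array left out, that of Sparc in 4 of 6 fits. Of 18 tested genes of collagen processing 3 were called higher (Lox, the prolyl hydroxylase subunit P4ha3 and Crtap) and 0 lower. Of 16 tested elastic fibre and microfibril genes 3 were higher (Ltbp3, Efemp1, Fbln5) and 0 lower. Among all tested genes 3.11% were called higher and 0.441% lower. Sulf1, an extracellular sulfatase that edits heparan sulfate, gave 1586, 1352 and 1713 and then 3617, 4572 and 5418 (log2 change 1.54 ± 0.17, adjusted p = 0.0031). Papss2, which makes the sulfate donor for proteoglycans, gave 608, 343 and 407 and 2407, 2876 and 3145 (log2 change 2.67 ± 0.43, adjusted p = 0.012), with no overlap and a call in 4 of 6 fits with an array left out. Of 17 tested ADAMTS and ADAMTS-like genes, secreted proteases and relatives that act on the matrix, 4 were called higher (Adamtsl1, Adamts5, Adamts12 and Adamts8) and 0 lower, and 2 were called with any of E11.5 A, E11.5 B, E12.5 A, E12.5 B or E12.5 C left out. Adamts8 was near background.

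Genes of protein secretion rose only in small part. Of 30 tested genes of endoplasmic reticulum folding and transport 3 were called higher and 0 lower, beside 3.11% of all tested genes higher, with a median log2 change of 0.10. Kdelr3, a receptor that returns chaperones to the endoplasmic reticulum, gave 222, 159 and 195 at E11.5 and 659.8, 805 and 753 at E12.5 (log2 change 1.96 ± 0.17, adjusted p = 0.0013). The lowest E12.5 array was more than 2 times the highest E11.5 array, and the call held with each array left out. Sec24d, a coat subunit of transport vesicles, and Creb3l2, a factor of secretory cells, were the others (log2 0.72 and 0.68).

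Annexins and S100 proteins were also among the calls. They are proteins of membranes and the cytoplasm, most but not all of which bind calcium, and some form complexes with each other. Of 13 tested members 6 were called higher and 0 lower, beside 3.11% and 0.441% of all tested genes (median log2 change 0.88). S100a10 gave 425, 475 and 451 at E11.5 and 1617, 1520.4 and 1381 at E12.5 (log2 change 1.74 ± 0.13, adjusted p = 5.6e-04). Its known partner Anxa2 gave 800.5, 988 and 829 and then 2587, 2575 and 2929.6 (log2 change 1.63 ± 0.15, adjusted p = 0.0013). Both genes had narrow stages far apart, and both calls held with each array left out, though that of Anxa2 did not hold with the mean of its probe sets (log2 0.69, adjusted p = 0.096). Anxa4 (1.18 ± 0.19), Anxa6 (0.99 ± 0.19), S100a6 (0.98 ± 0.22) and Anxa1 (1.55 ± 0.29, near background) were also called (adjusted p between 0.012 and 0.047). Without E12.5 B or E12.5 C, or with the mean of a gene's probe sets, 2 members were called.

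**Figure D3:**
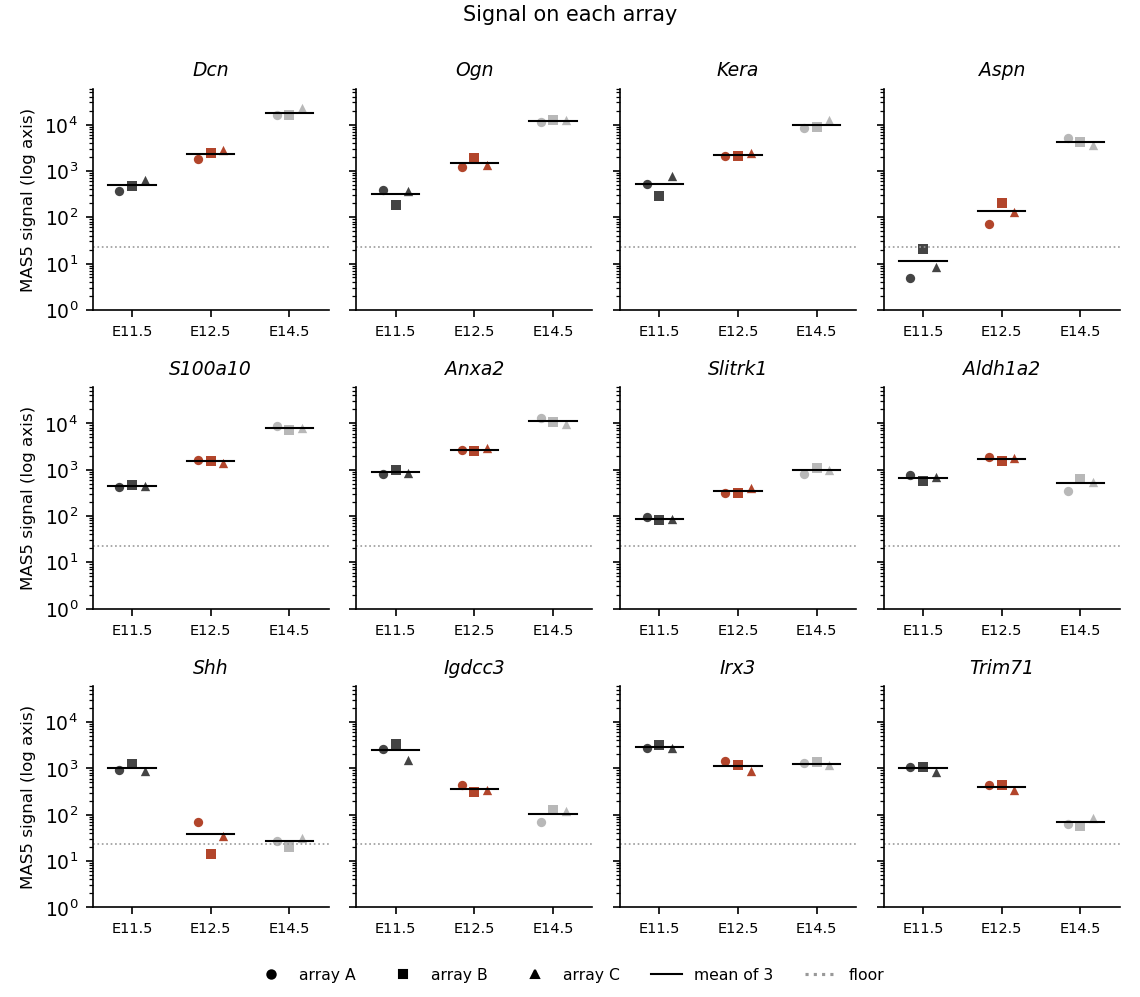
MAS5 signal (log axis) of 12 genes on each array of the 3 stages; symbols are arrays A, B and C, black bars the means of 3 and the dotted line the floor of 22.7. In each gene shown the E11.5 and E12.5 arrays do not overlap, and Aldh1a2 is higher at E12.5 than at either other stage.

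Potassium channel genes rose in number but mostly from low signals. Of 27 tested genes with a channel symbol 8 were called higher and 1 lower, beside 3.11% and 0.441% of all tested genes. The median log2 change was 0.93. Kcne4, an accessory subunit, gave 77.97, 80.4 and 113 at E11.5 and 320.2, 356 and 249 at E12.5 (log2 change 1.77 ± 0.21, adjusted p = 0.0035), and its call held with each array left out. Kcnd2, a voltage-gated channel, rose by 1.03 ± 0.18 (adjusted p = 0.016), and Kcnk2 and Kcnk6, background channels, by 0.93 and 1.12. Kcnmb4, a subunit of calcium-activated channels, rose by 0.99, and Kcnmb4os2, named as a transcript of its opposite strand, by 1.09. Kcnq5 and Kcnip4 were called from signals near background. Kcnh2, the channel of cardiac repolarization, fell from 385, 365 and 363 to 215, 201 and 189 (log2 change -0.88 ± 0.14, adjusted p = 0.011). The family's rises numbered 1 without E12.5 C or with the mean of a gene's probe sets, 3 without E12.5 B or E11.5 A, 4 without E11.5 C, E12.5 A or E14.5 B and 5 without E11.5 B. Apart from Kcnmb4, every called channel gene had a higher-stage mean under 400.

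Genes of several signalling pathways were called. Of 26 tested genes of TGF-beta and activin signalling, a pathway that induces Scx in limb cells, 7 were called higher and 1 lower, beside 3.11% of all tested genes higher. With the mean of a gene's probe sets 1 of them (Tgfb2) was called higher and 0 lower, and with no filter 3 higher and 0 lower. The ligand gene Tgfb2 gave 2543, 2625 and 2593 at E11.5 and 3864, 4648 and 5069.8 at E12.5 (log2 change 0.80 ± 0.14, adjusted p = 0.018), and Inhba, which encodes the activin A subunit, rose from a mean of 158 ± 47.7 to 368 ± 77.8 (adjusted p = 0.023). The receptor gene Tgfbr2 gave 843, 769.9 and 905 and then 1672, 2024 and 2201 (log2 change 1.22 ± 0.14, adjusted p = 0.0034), and the coreceptor gene Tgfbr3 rose by 0.69. Ltbp3, which holds latent TGF-beta in the matrix, gave 881, 1043 and 1081 and 2240.3, 2814 and 2859.7 (log2 change 1.39 ± 0.17, adjusted p = 0.0044). The stages of Tgfbr2 and Ltbp3 lay apart on all arrays and their calls held with each array left out. Fst, an activin antagonist, and Tgfbi, a target gene, rose by 0.96 and 0.87. The receptor gene Acvr2b fell from 1474 ± 297 to 861 ± 34.4 (adjusted p = 0.035). Tgfb3 gave means of 655 ± 110.2 and 857 ± 17.3 and did not pass the test (adjusted p = 0.38). Only 2 members were called higher without E11.5 A, E12.5 B or E12.5 C, and 3 without E11.5 B.

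Wnt ligands and genes of forming joints were among the rises, and the lists share members. Of 46 tested genes of Wnt signalling 5 were called higher and 1 lower (3 higher without E12.5 C). Of 15 tested genes of the joint interzone, the band of cells where a joint forms, 5 were higher and 0 lower. Among all tested genes 3.11% were called higher and 0.441% lower. Wnt4 gave 71.9, 25.7 and 60.0 at E11.5 and 307, 294 and 256 at E12.5 (log2 change 2.57 ± 0.40, adjusted p = 0.0098), and its call held with each array left out. Gdf5, the classical marker of the interzone and a ligand of the BMP family, gave 342, 212 and 474 and then 1007, 1005 and 1373 (log2 change 1.78 ± 0.34, adjusted p = 0.024). In neither gene did the stages overlap, but the call of Gdf5 held in only 1 of 6 fits with an array left out. Wnt9a (0.82 ± 0.16), the secreted Wnt inhibitor Sfrp2 (0.93 ± 0.16) and the ETS factor Erg (1.65 ± 0.30), which is also a marker of endothelium, completed the interzone calls. The interzone count was 1 without E12.5 C, 2 without E12.5 B, and 3 without E11.5 A or E12.5 A. Dkk2, a secreted Wnt inhibitor, gave 965, 857 and 1007 and then 2093, 2657 and 2423 (log2 change 1.34 ± 0.20, adjusted p = 0.0079), and Wnt2 was called from signals near background. Of 25 tested genes of BMP signalling 3 were called higher (Gdf5, Gdf10 and, near background, Bmp6) and 0 lower; none was called without E12.5 B or E12.5 C and 1 without E11.5 A or E11.5 B.

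The summed signal of 18 endothelial markers ranged from 1356 to 1953 over the E11.5 arrays and from 2189 to 2597 over the E12.5 arrays, and Erg was the only marker of that list to be called among 9 tested. Without Erg the sum of the other 17 ranged from 1167 to 1659 and then from 1274 to 1864. Of the 18 markers 12 had a higher mean at E12.5, in 3 of them (Erg included) every E12.5 array stood above every E11.5 array, and in 0 the reverse held. Among all tested genes 3.11% were called higher and 56.4% had a change above 0. The arrays of the stages did not overlap for 15.8% of them as a rise and for 7.75% as a fall. Tek and Cdh5, both near background, had means of 50.9 and 37.1 at E11.5 and 96.95 and 74.8 at E12.5, while the defining markers Pecam1 and Tie1 went from 47.1 and 11.4 to 19.7 and 2.61. The part of endothelial cells in the rise of Erg was not tested.

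Enzymes that make retinoic acid were among the rises. Of 16 tested genes of the retinoid pathway 3 were called higher and 0 lower, beside 3.11% and 0.441% of all tested genes. Aldh1a2, which makes retinoic acid, gave 751, 567 and 700 at E11.5, 1864, 1522 and 1769 at E12.5 and 345, 625 and 547 at E14.5. It stood highest at E12.5 on all arrays, with a log2 rise of 1.36 ± 0.22 (adjusted p = 0.013) and then a fall of size 1.80 (adjusted p = 6.3e-04), and the change differed between the intervals (adjusted p = 0.0075). A related enzyme, Aldh1a3, gave 27.6, 3.33 and 5.99 and then 99.1, 148 and 158, a rise within the near-background range (log2 change 2.45 ± 0.23, adjusted p = 0.0013), and the retinoid X receptor gene Rxrg rose near background from 65.8 ± 6.12 to 142 ± 11.1 (adjusted p = 0.0059). The 3 calls held without each of E11.5 A, B and C and E12.5 A and B, and 2 without E12.5 C. No member of the FGF and ERK feedback list (21 tested) or of the Notch list (15 tested) was called by limma. At an unadjusted p under 0.05 there were 5 FGF and ERK members (3 higher, 2 lower) and 4 Notch members (2 and 2). Among all 11575 tested genes there were 1850 in either direction.

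Among surface proteins with leucine-rich repeats, many of them known from synapses, 5 of 39 tested genes were called higher and 1 lower. The shares of all tested genes were 3.11% and 0.441%. Slitrk1 gave 93.1, 81.2 and 86.8 at E11.5 and 306, 318 and 400.4 at E12.5 (log2 change 1.96 ± 0.16, adjusted p = 9.0e-04), while Slitrk6, its neighbour in the genome, fell from 518, 776 and 589 to 341, 292 and 229 (log2 change -1.13 ± 0.22, adjusted p = 0.027). In neither gene did the stages overlap. Lrrn1 rose by 0.68, and Lrrc4c, Lrrtm1 and Lrrtm4 were called from signals near background. With the mean of a gene's probe sets 1 was called higher, and 2 were without E12.5 A or E12.5 B. The summed signal of 22 markers of neural crest, Schwann cells and neurons ranged from 4616 to 4804 over the E11.5 arrays and from 5984 to 6141 over the E12.5 arrays, with 2 of 15 tested markers called, Ngfr (306 ± 33.9 to 619 ± 63.9) and Nefm (262 ± 46.5 to 648 ± 102). Without these 2 the sum of the other 20 ranged from 4023 to 4277 and then from 4640 to 5049, again with no overlap. Of the 22 markers 12 had a higher mean at E12.5, in 6 every E12.5 array stood above every E11.5 array, and in 2 every E12.5 array stood below. The shares of all tested genes were 56.4% with a change above 0, and 15.8% and 7.75% without overlap as a rise and as a fall. The means of Map2, Erbb3 and Stmn2 went from 752, 507 and 119.5 to 1225, 681 and 223. The glial marker Sox10 had means of 83.01 and 75.7 and the neuronal markers Elavl3 and Prph of 69.3 and 7.27 at E11.5 and 27.9 and 7.22 at E12.5. The part of these markers in the result was not tested.

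Many of the largest rises belonged to other genes. Scin, which encodes the actin-severing protein scinderin, gave 51.9, 24.2 and 62.3 at E11.5 and 314, 373 and 464 at E12.5 (log2 change 3.15 ± 0.56, adjusted p = 0.019), the largest called rise with signals floored at 22.7. With no floor the changes of Tm4sf1 (4.79), Aldh1a3 (4.01), Chodl (3.86), Aspn (3.72) and Zfp385b (3.55) were larger than that of Scin (3.15). Chodl, which encodes the membrane lectin chondrolectin, gave 3.35, 30.3 and 28.4 and then 107, 292 and 280.3 (log2 change 2.94 ± 0.38, adjusted p = 0.0051). Scara5, a ferritin receptor, gave 30.2, 50.01 and 54.9 and then 196, 388 and 414 (log2 change 2.86 ± 0.32, adjusted p = 0.0031). In all 3 the E11.5 signals were under 65 and the E12.5 signals over 100, and Scin held its call in 3 of the 6 fits with an array left out. Irx1, an Iroquois homeobox gene, rose from 72.2, 232 and 89.7 to 551, 803 and 973 (log2 change 2.72 ± 0.39, adjusted p = 0.0075), opposite to its relative Irx3. Slc26a7, an anion exchanger, gave 14.8, 45.2 and 56.2 and 123, 284 and 340 (log2 change 2.56 ± 0.41, adjusted p = 0.011), and it was 1 of 6 called among 199 tested solute carriers, all higher (3.02%, beside 3.11% of all tested genes). Cbln2, a secreted synaptic organizer, gave 25.04, 22.3 and 27.9 and 118, 158 and 196 (log2 change 2.62 ± 0.19, adjusted p = 5.6e-04), and Il1r1, the interleukin-1 receptor, 14.3, 18.4 and 17.8 and 97.2, 91.1 and 166 (log2 change 2.33 ± 0.27, adjusted p = 0.0034). The means of Cbln2 and Il1r1 were near background at both stages. In all, 259 of the 411 called genes lay in no hand-made list or symbol family. Of genes in the function lists 59 of 560 tested were called (10.5%), and of those in symbol families 120 of 2437 (4.92%). Among all tested genes 3.55% were called. Protein-coding genes made up 353 of the 360 rises and 50 of the 51 falls, and long noncoding RNAs 7 and 1. Among the genes not called, of 11575 tested, 10845 were protein coding and 251 were long noncoding RNAs.

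Families of growth and of general cell function gave few calls or none. Of 37 tested mitosis genes and 35 tested DNA replication genes none was called by limma. At an unadjusted p under 0.05 there were 5 and 7 members, all lower, beside 1850 of all 11575 tested genes in either direction. The medians were -0.24 and -0.20 on the log2 scale. Only 1 and 3 members, respectively, had a change above 0, beside 56.4% of all tested genes. In the next interval 25 mitosis and 22 DNA replication genes were called lower, beside 9.32% of all tested genes. The respiratory chain (88 tested), mitochondrial ribosomal proteins (76), the proteasome (44) and kinesins (28) had no call. Their members at an unadjusted p under 0.05 numbered 2, 3, 2 and 5. Of 306 tested zinc finger genes of the Zfp, Zkscan and Zscan families 3 were higher and 1 lower, beside 3.55% of all tested genes called. Of 29 tested immediate early and heat shock genes none was called, with 3 at an unadjusted p under 0.05 and a median log2 change of 0.60. That median was 1.11 without E11.5 A, with Egr1 and Fos called higher, and 0.31 without E11.5 B, 0.35 without E12.5 A and 0.93 without E12.5 C, with none called. With the replicate block Egr2 and Klf6 were called higher, with the block on the 6 arrays alone Klf2 and Klf6, and without the letter A arrays Egr2, Egr1, Atf3 and Klf6. Egr1, an early growth response factor, spread widely within a stage, at 15290, 1004 and 2213 on E11.5 arrays A, B and C and 19279, 12428 and 6203 at E12.5 (log2 change 1.82 ± 0.83, adjusted p = 0.33), so its stages overlapped. Of 88 families defined by a symbol pattern 52 held at least 1 call, and of 197 families formed automatically from the leading letters of symbols, each with at least 8 tested members, 135 held none.

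The filter admits a dim gene only through the arrays where it is high, so the shares of calls by level are a description of the genes that passed it. A gene was counted as near background where the mean of its higher stage was under 181, which is 2 times the median of all signals, and 114 of the 411 calls (27.7%) were of that kind, 108 rises and 6 falls, beside 15.5% of all tested genes. With no filter 43 of 8411 genes near background (0.511%) and 139 of the other 9782 (1.42%) were called, and with the filter within the 2 stages 73 of 884 (8.26%) and 350 of 9772 (3.58%), so which of the groups held the larger share of calls turned with the filter. With the 75th percentile of all signals (514) in its place the count was 236 (57.4% of calls, beside 38.8% of tested genes). By level of the higher stage, 6.35% of genes were called under 181, 4.48% from there to 500, 2.76% from 500 to 1000, 3.02% from 1000 to 3000 and 1.12% above 3000. The median log2 change of all tested genes in these 5 ranges of level went, in the same order, from 0.243 through 0.106, 0.036 and -0.010 to -0.018. Among calls above 1000 at both stages 38 were rises and 8 were falls.

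In 134 calls (32.6%) the mean of the lower stage was under 90.6, the median of all signals, and 124 of these were rises, beside 360 rises among all 411 calls. In 10 calls, all rises, the 3 arrays of the lower stage were all at the floor, in 33 calls 1 or 2 of them were, and in 368 none was. Setting the floor at 90.6 in place of 22.7 left 322 of the 411 calls (78.3%), with 27 of the 114 near background and 295 of the other 297. The 2 genes above near background that lost the call were Chodl, whose log2 change was 2.94 with the lower floor and 1.19 with the higher (adjusted p = 0.12 there), and Igfbp7, a secreted binding protein (adjusted p = 0.059). Cbln2 kept its call with a change of 0.77, and Aspn, Aldh1a3 and Il1r1 lost theirs.

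**Figure D4:**
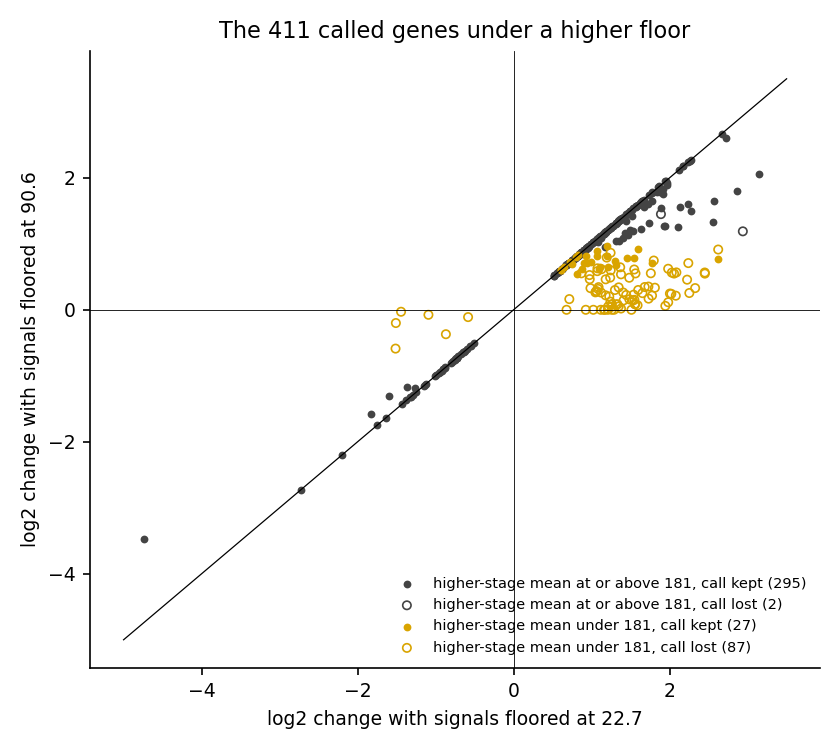
Log2 change of the 411 called genes with signals floored at 22.7 (x axis) and at 90.6 (y axis); filled points kept an adjusted p under 0.05 with the higher floor and open points did not, and the line marks equal change. Of the genes near background (yellow) 87 lost the call, against 2 of the others (dark).

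Many genes have other probe sets on the array, which measure other stretches of the transcript. For 84 called genes the brightest other probe set was above near background, and all 84 had the direction of the called change, with a median of 0.92 in that direction against 0.96 for the probe sets used. For another 168 genes the other probe set was near background, 128 had the same direction and the median was 0.34. The brightest other probe set gave a change of -2.30 for Igdcc3 and of 1.18 for Col6a2, while the other probe sets of Shh and Scara5 were near background. Fmod has 5 other probe sets. The brightest of them, named _x_at and so not used, had a higher-stage mean of 1376, above that of the set used, and a change of 2.29. The other probe set of Rspo2, also near background, went the opposite way (0.99). Where the mean of a gene's probe sets was tested in place of the set used, 141 of the 411 calls were kept. Of the genes whose arrays are given above, Mkx, Sall4, Hoxd13, Pmaip1, Rspo2, Dcn, Sparc, Papss2, Anxa2, Tgfbr2, Ltbp3 and Aldh1a3 lost theirs.

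Cartilage genes had higher means at E12.5, yet none was called in the limma fit of 9 arrays. In that fit 7 of 20 had an unadjusted p under 0.05, beside 1850 of all 11575 tested genes. All 20 tested members of the cartilage marker list had a change above 0, beside 56.4% of all tested genes, with a median log2 change of 1.34. In 16 of 20 the E12.5 arrays lay above all E11.5 arrays, as they did for 15.8% of all tested genes. Hapln1, which encodes a link protein of cartilage matrix, gave 48.5, 38.8 and 42.9 at E11.5 and 318, 383 and 410 at E12.5 (log2 3.09), but 4022, 755 and 174 on E14.5 arrays A, B and C. Its adjusted p was 0.0996 in the fit of 9 arrays and 0.0019 in that of the 6 arrays of E11.5 and E12.5. The same fit of 6 arrays called 6 members (Hapln1, the cytokine-like gene Cytl1, the aggrecan gene Acan, the matrilin gene Matn4, Col9a3 and the SLRP gene Epyc), and a fit of 9 arrays without E14.5 A called 7. The median SD of a cartilage gene within a stage was 0.444, 0.198 and 1.59 on the log2 scale at the 3 stages in order of age, against 0.204, 0.175 and 0.212 for all tested genes. The transcription factor gene Sox9, which starts the cartilage programme, gave 2625, 2204 and 2404 and then 3174, 2558 and 2802 (log2 change 0.24 ± 0.41, adjusted p = 0.84), and the collagen II gene Col2a1 5041, 5338 and 5720.2 and 8967, 7439.9 and 10564 (log2 change 0.73 ± 0.53, adjusted p = 0.56).

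**Figure D5:**
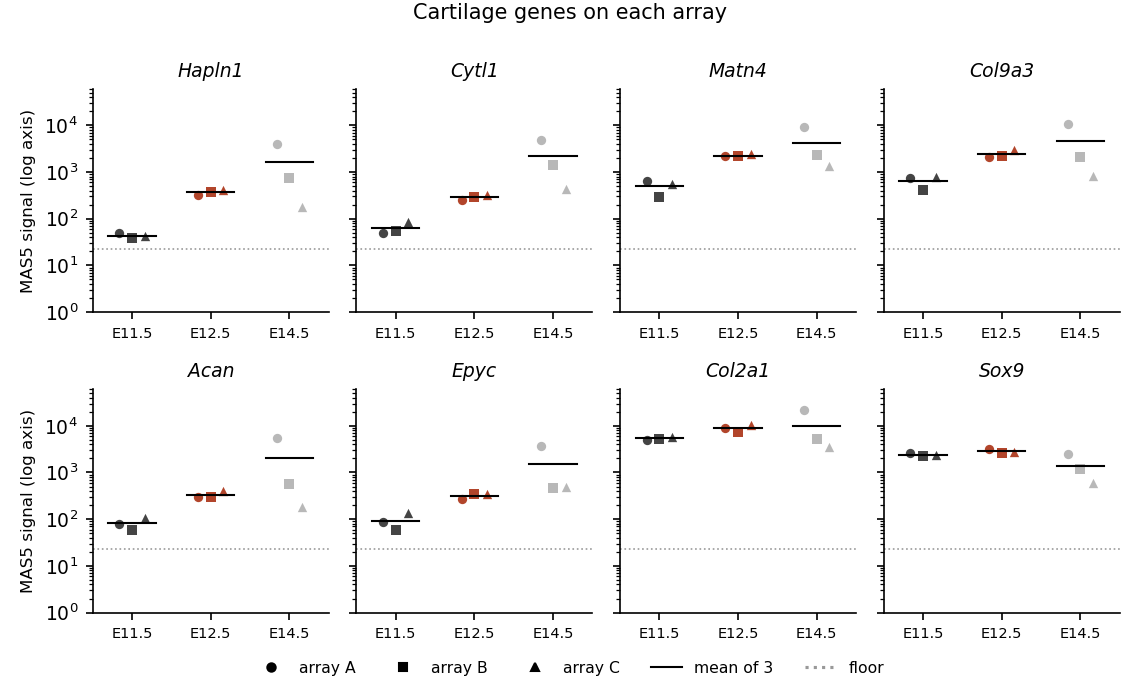
MAS5 signal (log axis) of 8 cartilage genes on each array of the 3 stages; symbols are arrays A, B and C, black bars the means of 3 and the dotted line the floor of 22.7. In Hapln1, Cytl1, Matn4, Col9a3, Acan and Epyc the E12.5 arrays lie above the E11.5 arrays and close together, while array A stands highest at E14.5 in all 8.

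Summed over all 23 markers, the cartilage signal ranged from 19312 to 24580 at E11.5 and from 36269 to 42207 at E12.5. The muscle sum over 28 markers ranged from 6370 to 10330 and then from 10873 to 18637, with array A highest at both stages; of 25 tested muscle markers 21 had a change above 0, Myl4, a myosin light chain, was called higher and Pax3 lower. With the replicate block Myl4 was not called (adjusted p = 0.0678), and the precursor markers Pax3, Myf5 and Lbx1 were called lower. The defining marker Myog gave 945, 490.1 and 676 and then 1245, 837 and 721 (log2 change 0.42 ± 0.27, adjusted p = 0.50). The sums of fibroblast, red cell, macrophage, ectoderm and smooth muscle markers overlapped between the stages. Of 14 fibroblast markers 12 had a higher mean at E12.5. In 3 of the 14 every E12.5 array stood above every E11.5 array, and in 1 every E12.5 array stood below. That lack of overlap was found for 15.8% and 7.75% of all tested genes. Among 13 tested, 2 were called, both higher (Cd34 and Gsn), and the median log2 change was 0.53. For muscle and fibroblast markers alike, the shares of all tested genes were 56.4% above 0, 3.11% called higher and 0.441% called lower. The part of cartilage, muscle and fibroblast cells in the results above was not tested.

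A few early changes turned in the next interval. In the next interval 2542 genes (22% of those tested) were called, 1463 higher (12.6%) and 1079 lower (9.32%). The difference between the intervals was itself called for 89 genes (0.769%). Both intervals share the E12.5 arrays, so a high or low E12.5 mean moves the 2 changes in opposite directions. The turns given here, and that of Aldh1a2 above, are therefore a description only. Hoxd13 rose by 0.88 and then changed by -0.91 (adjusted p = 0.011 for the difference), Kcnmb4 by 0.99 and then -1.05 (0.044), and Rfx4, a transcription factor near background, by 1.08 and then -2.29 (0.0039). Sp5 fell and then changed by 1.95 (0.0067), and Pax1 fell and then changed by 1.12 (0.040). Larger rises followed for Thbs2, a thrombospondin, which rose by 1.07 and then by 3.55 (0.022), and for the surface marker gene Cd34, near background at first, which rose by 1.60 and then by 3.72 (0.049). Shh was low at both later stages, with means of 39.1 ± 27.3 there and 26.3 ± 6.04 at E14.5.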

How the data were processed

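Affymetrix mouse expression arrays of sorted Scx-GFP forelimb cells were deposited as MAS5 signals, a linear intensity per probe set, which the authors computed in Expression Console 1.1, as the submitters' processing notes state; each array's trimmed mean (2% off each end) is 500. The probes on an array, and the 3 arrays a stage, limit the precision. Of 45101 probe sets, 34945 carried 1 gene symbol; 64 control probe sets, 932 with several symbols and 9160 without a listed symbol were left out. The 34945 gave 18193 genes, each read from its brightest probe set (highest log2 mean over 9 arrays). Probe sets named _x_at were used only for the 100 genes with no other, so a brighter _x_at set of another gene was passed over. Signals under 22.7, the 25th percentile of all deposited intensities, were set to that floor, and log2 was taken. Genes above the overall median (90.6) on at least 3 of 9 arrays were tested with limma 3.58.1 in R 4.3.3, in 1 fit with a mean per stage, and p-values were adjusted by Benjamini and Hochberg over all 11575. The steps were tested on simulated data.

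The letters A, B and C are shared between stages. Same-letter deviations correlated at 0.520, 0.133 and 0.332 between E11.5 and E12.5, so the letters were treated as pairing the samples in the fit with a replicate block; what they stand for is not given in the sources used here.

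The members and gene lists were chosen with earlier results of these data known. Named genes were the 12 largest rises and falls among called genes without overlap, the 6 largest each way with means over 1000 at both stages, the 4 largest near background, up to 3 called members of each group described, and, called or not, Shh, Fgf8, Gdf5, Xist, Myog, Sox9, Scx, Egr1, Mkx, Tnmd, Col1a2 and Col1a1. Other genes named were chosen after their values were seen, to complete a group or give members that did not pass: the cartilage, nerve, endothelial, muscle and immediate early genes not named above, Acvr2b, Adamts8, Anxa4, Anxa6, Bgn, Col5a1, Dkk2, Fmod, Fst, Gli1, Hmga2, Igf2bp1, Kcnd2, Kcnh2, Kcnk2, Kcnk6, Kcnmb4, Kcnmb4os2, Kera, Lrrn1, Lrrtm4, Mycn, Ptch1, Rfx4, S100a6, Sfrp2, Slitrk6, Tgfb3, Tgfbi, Tgfbr3 and Tm4sf1. Alternatives were another floor, filter, probe-set rule, centring, quantile normalization, prior, array weights, the 6 arrays alone, the replicate block, no letter A arrays and each array left out; those of the 6 arrays with the block and of the cartilage list without E14.5 A were added after seeing the data. Promoters come from RefSeq (GRCm38.p6).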

Additional observations from a re-analysis of the deposited data

How the results depend on the processing

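All 411 calls rest on 3 arrays a stage, and the count moved with the processing. It was 156 (136 higher, 20 lower) with the mean of a gene's probe sets, 182 (154 and 28) with no filter, 246 (193 higher) with quantile normalization, 249 (225 and 24) without the letter A arrays, and 125 to 486 (113 to 423 higher, 12 to 63 lower) with 1 array left out. Median centring gave 236 higher and array weights 79 lower. With the replicate block 527 were called, and 379 of the 411 calls were kept. Rises made up 87.6% of calls, 81.4% with median centring and 78.5% with quantile normalization. Calls near background numbered 72 with the 6 arrays, 73 with the filter applied within the 2 stages, 30 with the higher floor, 34 with the mean of probe sets, 43 with no filter, 60 with quantile normalization, 63 with a trended prior, 236 under the 75th percentile, and 35 to 118 with 1 array left out. Of 138 named calls none changed sign; 132 were kept with the replicate block, 109 with the higher floor, 108 with median centring, 101 with the 6 arrays, 96 with quantile normalization, 60 with the mean of probe sets, 59 with no filter and 52 without E12.5 C. Xist, at 0.02 and not called, was at -0.037 with median centring and from -0.17 to 0.26 with 1 array left out. The cause was not tested. Fold changes from near the floor are bounded by it, since signals below it have no order.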

Other observations

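Among called genes that belong to none of the lists or symbol families, and that were chosen here after their values were seen, several encode transcription factors. Nfix, a nuclear factor I gene, gave 695, 465 and 650.5 on E11.5 arrays A, B and C and 1869.8, 2327 and 2357 on the E12.5 arrays (log2 change 1.87 ± 0.18, adjusted p = 0.0018, limma). Its relative Nfia gave 673, 846 and 1007 and then 1268, 2426 and 2473 (log2 change 1.24 ± 0.27, adjusted p = 0.039), and Ebf1, an early B-cell factor gene also expressed in mesenchyme, gave 1896, 1195 and 2202 and 3228, 3574 and 4015 (log2 change 1.07 ± 0.24, adjusted p = 0.045). In none of the 3 did the stages overlap. Maf rose by 1.09, Hic1 by 1.05 and Mef2c, a factor of muscle and other mesoderm, by 0.97 on the log2 scale. Falls outside the lists were called for Lmo2, a transcriptional adaptor (-1.15 ± 0.17), Chd7, a chromatin remodeler (-0.99 ± 0.18), Met, the receptor of hepatocyte growth factor (-0.64 ± 0.14), and Elovl2, a fatty acid elongase (-1.01 ± 0.15).

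Egfl6, a matrix protein with EGF repeats, gave 248, 282 and 411 at E11.5 and 958, 1965 and 1608 at E12.5 (log2 change 2.24 ± 0.28, adjusted p = 0.0044). Piezo2, a mechanically gated ion channel, rose by 2.03 ± 0.27, the receptor genes Egfr and Agtr2 by 1.57 ± 0.32 and 1.38 ± 0.21, and Kitl, the ligand of Kit, by 1.49 ± 0.18. Mgp, which encodes matrix Gla protein, an inhibitor of calcification that cartilage also makes, gave 260.2, 149 and 217 and 938, 863 and 848 (log2 change 2.12 ± 0.41, adjusted p = 0.025).

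Fgf8, the signal of the apical ectodermal ridge, was not among the tested genes, because it exceeded the median of all signals on too few arrays. Its signals were 16.9, 3.70 and 33.0 at E11.5, 102, 147 and 89.8 at E12.5 and 9.04, 10.8 and 8.98 at E14.5.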
